A study of Mus musculus with 7 samples.

Results

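The 10 genes described here encode matricellular proteins, and were taken by symbol as Thbs1, Thbs2, Thbs3, Tnc, Postn, Sparc, Nov, Wisp1, Wisp2 and Smoc2 from a table of read counts for 18468 mouse genes. All 10 were in the table and all passed the filter on low counts, which left 12388 genes for testing. The cells were C3H10T1/2, a mouse mesenchymal line able to take osteogenic or adipogenic directions, and carried no introduced gene in this experiment. They were kept without serum for 12 h, and serum stayed absent during the treatment that followed. Purmorphamine, a small-molecule agonist of Smoothened, was given at 2 μM for a further 48 h (replicates 5, 6, 7 and 8, n = 4 libraries). The vehicle group received DMSO at 0.02% for that time (replicates 2, 3 and 4, n = 3 libraries). Smoothened is the membrane protein that passes the Hedgehog signal on to the Gli transcription factors. One cell line, one dose and one time were examined, and no source says whether the libraries of a group came from separate cultures, so that p-values measure only the spread between these libraries.

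Matricellular proteins are secreted into the extracellular matrix but do not build it in the way collagens do. They bind integrins, proteoglycans, proteases and growth factors, and are known for modulating adhesion, migration and matrix assembly during development and wound repair. Thrombospondins, tenascins, periostin, SPARC with its SMOC relatives, and the CCN proteins (Nov is CCN3, Wisp1 is CCN4 and Wisp2 is CCN5) are the families represented here, and mesenchymal cells are a common source of them.

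The values are the deposited sense-strand counts, which the authors made after resampling all libraries to equal depth, and each library held 14337225 to 14342154 reads. Within a group the libraries differed by more than counting noise, the chi-square averaging 2.07 to 8.03 a gene in 9 pairs, against 43.7 to 56.3 in the 12 pairs between groups. Gli1, a direct Hedgehog target, had 10.0 ± 2.65 reads with DMSO and 2770.0 ± 295 with purmorphamine, and Ptch1, the Hedgehog receptor gene, had 521 ± 15.1 and 10922.5 ± 475 (SD, n = 3 and n = 4). All 7 of 7 mesenchymal markers were above 3 reads, with sums of 265486 to 273186 reads with DMSO and 241120 to 262384 with purmorphamine. Within that sum the markers moved apart: Vim had 79220 to 81440 reads with DMSO and 41359 to 43378 with purmorphamine, whereas Pdgfra had 10552 to 11060 and 18354 to 19275, and Thy1 1060 to 1182 and 1756 to 2024. Of 5 endothelial markers, 4 were above 3 reads, and their sum ran from 779 to 820 with DMSO and from 1898 to 2154 with purmorphamine, nearly all of it Tek. Pecam1 had at most 5 reads, Tie1 at most 1, and Cdh5 had 0 in every DMSO library and 21 to 26 with purmorphamine. Of 4 epithelial markers 2 were in the table, and Cdh1 alone was above 3 reads (14 to 21 reads with DMSO, 110 to 135 with purmorphamine), and Krt14 had at most 1 read. Leukocyte markers summed to 13 to 16 reads with DMSO and 10 to 19 with purmorphamine, where 3 of the 5 were in the table, 1 of them (Cd68) above 3 reads, and Ptprc at 0 in all but 1 library. Platelet and megakaryocyte markers, which bear on thrombospondin, summed to 32 to 36 and 20 to 44 reads, where 3 of the 4 were in the table, 1 of them (Itga2b) above 3 reads, and Pf4 at most 1. The part of the Vim, Pdgfra, Thy1, Tek, Cdh5 and Cdh1 differences in the results was not tested.

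Purmorphamine lowered transcripts for 6 of the 10 genes and raised those for 2. Tnc fell by 2.70 on the log2 scale, the largest change of the 10, followed by Wisp1, Thbs1, Thbs2, Sparc and Nov, whereas Smoc2 and Thbs3 rose. Postn and Wisp2 were not called. In RNA from whole cultures, fewer cells that make a transcript and less of it per cell cannot be told apart. A call was an adjusted p under 0.2 in edgeR's quasi-likelihood test, the false-discovery rate of the study. The same numbers were called at 0.05, for which the share of all genes is not given here. At 0.2, 31.4% of all genes tested were called higher and 31.1% lower, so a change as such was common among these cells' transcripts. With a change of at least 1.5-fold required as well, 1 of the 10 genes was higher, against 7.89% of all genes, and 4 were lower, against 7.56%. For 9 of the 10 genes the deposited reads of the 2 groups did not overlap, which held for 49.5% of all genes tested. The median log2 fold change of the 10 genes was -0.55, and that of all genes tested was 0.0038.

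**Figure D1:**
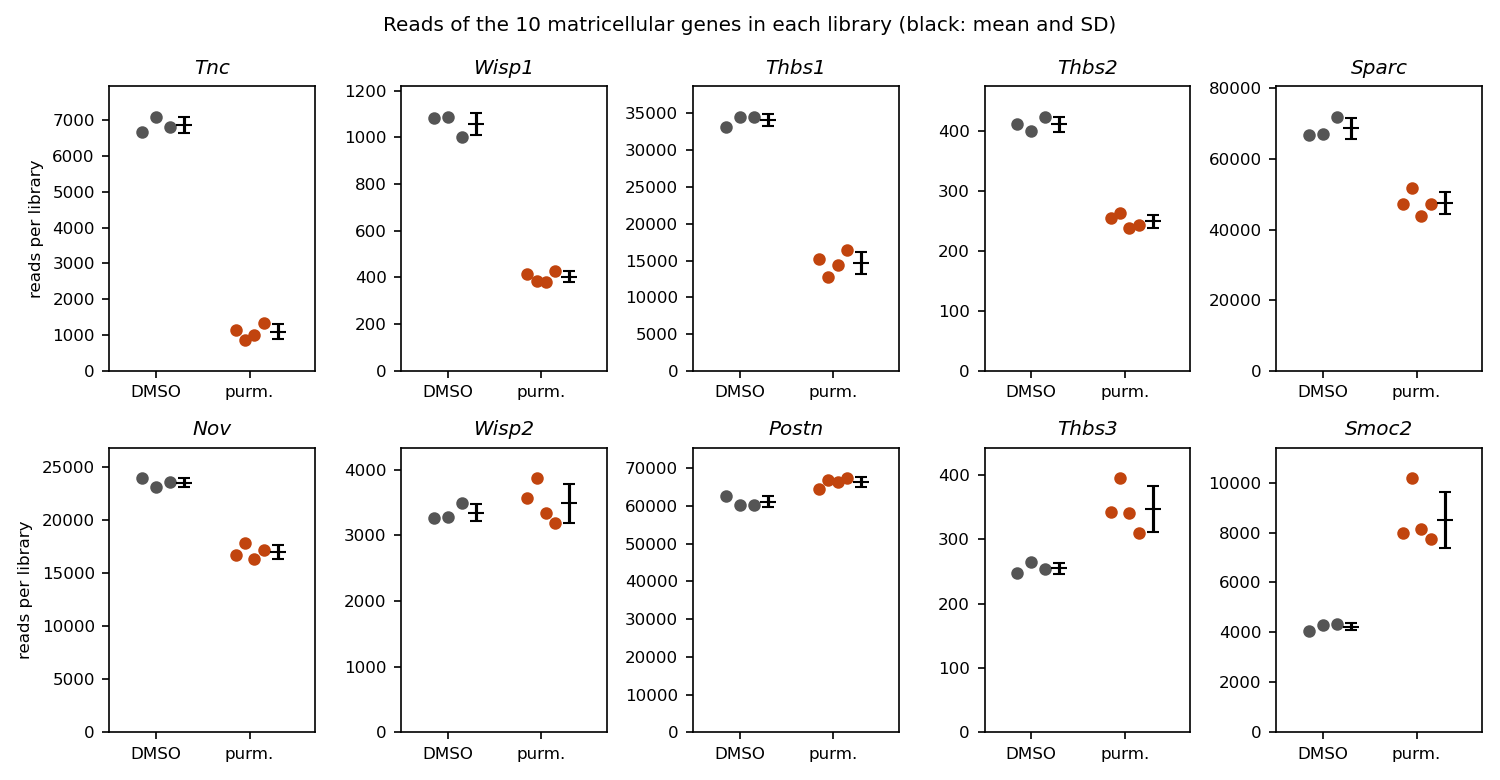
Reads per library (vertical axes, each from 0) for the 10 genes, with 1 point for each DMSO library (grey, n = 3) and each purmorphamine library (orange, labelled purm., n = 4) and the mean with SD in black. The groups overlap only for Wisp2, and the 4 purmorphamine libraries of Tnc lie between 876 and 1350 reads against 6681 to 7099 with DMSO.

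Thrombospondins are multimeric glycoproteins. Thrombospondin 1 and thrombospondin 2 form trimers, bind CD36 and CD47 and restrain angiogenesis, and thrombospondin 1 also activates latent TGF-β. Thrombospondin 3 belongs to the pentameric subgroup. Thbs1 (ENSMUSG00000040152, chromosome 2 from 118111876 to 118127133 in GRCm38, plus strand) had 33122, 34565 and 34469 reads in DMSO replicates 2, 3 and 4. It had 15193, 12788, 14421 and 16408 reads in purmorphamine replicates 5, 6, 7 and 8. The highest purmorphamine library was below every DMSO library by a wide margin. The means were 34052 ± 807 (SD, n = 3) and 14702.5 ± 1516 (SD, n = 4), a ratio of 0.432. The change on the log2 scale was -1.26 ± 0.0652 (SE, edgeR adjusted p = 7.00e-11).

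Thbs2 (ENSMUSG00000023885, chromosome 17 from 14665500 to 14694235, minus strand) was read far less often, with 412, 400 and 425 reads with DMSO and 255, 263, 239 and 244 with purmorphamine. The groups lay apart, and the libraries of a group differed by no more than counting alone gives, with a coefficient of variation of 3.03% with DMSO and 4.32% with purmorphamine against 4.92% and 6.32% from counting. Its change on the log2 scale was -0.77 ± 0.0716 (SE, edgeR adjusted p = 1.29e-07). Thbs3 (ENSMUSG00000028047, chromosome 3 from 89215180 to 89226837, plus strand) moved the other way, with 247, 264 and 253 reads with DMSO and 343, 395, 341 and 309 with purmorphamine. Every purmorphamine library was above every DMSO library, replicate 6 being the highest and replicate 8 the lowest. The change on the log2 scale was 0.40 ± 0.0869 (SE, edgeR adjusted p = 0.00117), with a 95% interval of 0.22 to 0.58 on that scale.

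Tenascin C, the product of Tnc (ENSMUSG00000028364, chromosome 4 from 63959785 to 64047015, minus strand), is a hexameric glycoprotein that is abundant around migrating and condensing mesenchyme and scarce in most resting adult tissue. Tnc had 6681, 7099 and 6794 reads with DMSO and 1145, 876, 997 and 1350 with purmorphamine. The mean went from 6858 ± 216 (SD, n = 3) to 1092 ± 204 (SD, n = 4), 6.28-fold lower, a log2 change of -2.70 ± 0.0933 (SE, edgeR adjusted p = 4.43e-13). Ranked by mean reads, Tnc went from place 265 to place 3272 of the 18468 genes. The spread among the purmorphamine libraries was wide for so many reads, with a coefficient of variation of 18.7% against 3.03% from counting, whereas with DMSO it was 3.15%.

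Periostin, the product of Postn (ENSMUSG00000027750, chromosome 3 from 54361109 to 54391037, plus strand), binds integrins, collagen I and tenascin C, and is made by periosteum and periodontal ligament. Postn was among the most read genes of these cells, with 62775, 60359 and 60364 reads with DMSO and 64508, 66883, 66462 and 67414 with purmorphamine. The deposited reads of the groups did not overlap, but after TMM scaling (edgeR's correction for the composition of the libraries) they did. The change on the log2 scale was 0.07 ± 0.0460 (SE, edgeR adjusted p = 0.231), with a 95% interval of -0.03 to 0.17. With library totals alone it was 0.12 and was called (adjusted p = 0.0403), while the median of all genes tested was then 0.051. Postn was also called with DESeq2 (adjusted p = 0.183), with limma-voom (adjusted p = 0.140), without purmorphamine replicate 5 (adjusted p = 0.196) and without purmorphamine replicate 6 (adjusted p = 0.166). Over all 15 alternatives its adjusted p ran from 0.0403 to 0.459.

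SPARC, also called osteonectin, is a collagen-binding calcium-binding glycoprotein that counters cell spreading, and SMOC2 carries a related calcium-binding domain. Sparc (ENSMUSG00000018593, minus strand of chromosome 11 from 55394500 to 55423183) had 66733, 67088 and 71975 reads with DMSO and 47216, 51646, 43924 and 47338 with purmorphamine. All purmorphamine libraries were lower, a log2 change of -0.58 ± 0.0551 (SE, edgeR adjusted p = 1.74e-07). It stayed among the most read genes, at place 12 with DMSO and place 13 with purmorphamine.

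Smoc2 (ENSMUSG00000023886, chromosome 17 from 14279506 to 14404790, plus strand) lies near Thbs2 on the same chromosome. It had 4060, 4282 and 4344 reads with DMSO and 7999, 10181, 8139 and 7728 with purmorphamine. The mean went from 4229 ± 149 (SD, n = 3) to 8512 ± 1126 (SD, n = 4), 2.01-fold higher, and replicate 6 stood above the other 3 purmorphamine libraries. The change on the log2 scale was 0.96 ± 0.0755 (SE, edgeR adjusted p = 1.46e-08), and 0.88 without replicate 6. Smoc2 thus moved in the direction opposite to that of Thbs2, its neighbour, and of Sparc, its relative.

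CCN proteins bind integrins, heparan sulfate and growth factors through 4 modules, of which CCN5 lacks the C-terminal one. Nov (ENSMUSG00000037362, chromosome 15 from 54745702 to 54754039, plus strand), whose product CCN3 is known to bind Notch1 and to restrain osteogenic differentiation, had 23993, 23139 and 23581 reads with DMSO and 16745, 17882, 16358 and 17223 with purmorphamine. The groups lay apart, a log2 change of -0.51 ± 0.0455 (SE, edgeR adjusted p = 6.49e-08). Wisp1 (ENSMUSG00000005124, chromosome 15 from 66891320 to 66923201, plus strand), a target of Wnt and β-catenin signaling, had 1081, 1089 and 1001 reads with DMSO and 417, 387, 382 and 428 with purmorphamine. Its mean was 2.62-fold lower with purmorphamine, a log2 change of -1.44 ± 0.0598 (SE, edgeR adjusted p = 4.23e-12). Wisp2 (ENSMUSG00000027656, chromosome 2 from 163820861 to 163833146, plus strand), also a Wnt target, had 3258, 3279 and 3489 reads with DMSO and 3565, 3872, 3339 and 3189 with purmorphamine. These ranges overlapped, and the change on the log2 scale was 0.02 ± 0.0588 (SE, edgeR adjusted p = 0.853). The 95% interval of the Wisp2 difference ran from -0.11 to 0.14, which is 0.927 to 1.10-fold.

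The spread between the purmorphamine libraries was not the same for all genes. By TMM-scaled reads, replicate 6 was the lowest and replicate 8 the highest for both Tnc and Thbs1, with 7 and 5 between them. For Smoc2 and Thbs3 replicate 8 was the lowest and replicate 6 the highest, and Gli1 also ran from replicate 8 to replicate 6. Ptch1 did not share this order, with replicate 6 the lowest and replicate 5 the highest. Wisp2, which was not called, also ran from replicate 8 to replicate 6. Replicate 6 was the highest for Thbs2, Sparc and Nov too, which fell with purmorphamine. The highest library exceeded the lowest 1.54-fold for Tnc, 1.29-fold for Thbs1, 1.31-fold for Smoc2, 1.28-fold for Thbs3 and 1.25-fold for Gli1, and only 1.04-fold for Postn. These orders rest on 4 libraries and are given as a description. By TMM-scaled reads, for none of the 10 genes did 1 purmorphamine library stand apart from the other 3 by Dixon's criterion. The nearest was replicate 6 for Smoc2, with a gap of 0.796 of the range, under the 95% critical value for 4 libraries. For Smoc2 this depends on the scaling. Its deposited reads were 10181 in replicate 6 against 7728 to 8139 in the other 3, a gap above that critical value.

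Levels can be compared between genes only per length, and were taken as reads per kilobase of merged exon (GENCODE M21) scaled to the TMM-corrected library size (RPKM). With DMSO, Sparc had the highest level, 1287 ± 59.0 (SD, n = 3), followed by Nov at 584, Postn at 499, Thbs1 at 398, Wisp2 at 123, Tnc at 62.7, Smoc2 at 43.2, Wisp1 at 13.5, Thbs2 at 4.18 and Thbs3 at 3.75. The libraries of each pair of neighbours in this order did not overlap. With purmorphamine, Sparc at 863 ± 53.3 (SD, n = 4) was still first, and Postn at 524 stood above Nov at 409. Thbs1 followed at 166, Wisp2 at 125 and Smoc2 at 84.2, which was now above Tnc at 9.66. Wisp1 at 4.99 and Thbs3 at 4.95 could not be ordered, since their libraries overlapped, and Thbs2 was last at 2.46. By the longest transcript in place of merged exons, Nov changed places with Postn, and Tnc with Smoc2, in the DMSO order, so neither of these orders is firm. Wisp2 changed places with Smoc2, and Wisp1 with Thbs3, in the purmorphamine order. The 10 genes together took 1.42% ± 0.0193 of all reads with DMSO (SD, n = 3) and 1.11% ± 0.0325 with purmorphamine (SD, n = 4), without overlap.

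**Figure D2:**
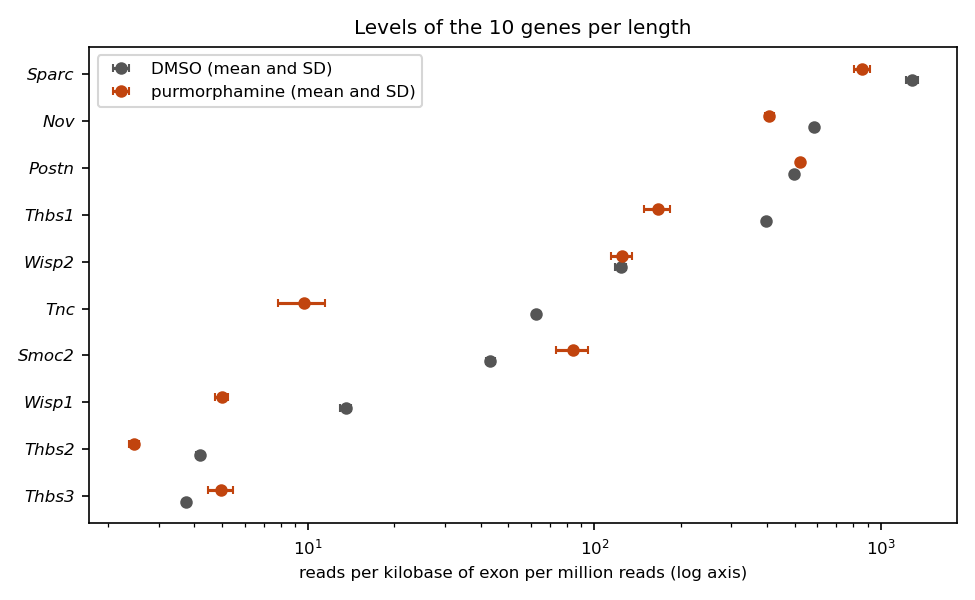
Level of each of the 10 genes (horizontal axis, logarithmic, in reads per kilobase of exon scaled to library size, RPKM) as the mean with SD over 3 DMSO libraries (grey) and 4 purmorphamine libraries (orange). The levels with DMSO run from 3.75 for Thbs3 to 1287 for Sparc, and Tnc shows the widest gap between the groups.

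Ratios between genes of a family were formed within each library, where the scaling of the library cancels. Thbs1 had 82.6 ± 3.29 reads for each Thbs2 read with DMSO (SD, n = 3) and 58.9 ± 7.70 with purmorphamine (SD, n = 4). Thbs1 against Thbs3 gave 134 and 43.0, and Thbs2 against Thbs3 gave 1.62 and 0.725, so that Thbs2 had more reads than Thbs3 in every DMSO library and fewer in every purmorphamine library, as their levels per kilobase also show. Among the CCN genes, Nov had 22.3 reads for each Wisp1 read with DMSO and 42.4 with purmorphamine, and 7.06 and 4.90 for each Wisp2 read. Wisp1 against Wisp2 gave 0.317 and 0.116. Sparc had 16.2 reads for each Smoc2 read with DMSO and 5.62 with purmorphamine.

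On the log2 scale, with 1 read added to each count, the differences in these ratios were -0.50 ± 0.103 for Thbs1 against Thbs2, -1.66 ± 0.148 for Thbs1 against Thbs3 and -1.16 ± 0.0714 for Thbs2 against Thbs3 (± standard error). They were 0.92 ± 0.0643 for Nov against Wisp1, -0.53 ± 0.0619 for Nov against Wisp2, -1.45 ± 0.112 for Wisp1 against Wisp2 and -1.53 ± 0.0666 for Sparc against Smoc2. In all 7 pairs the groups did not overlap. The two-sided exact permutation test over the 35 assignments gave p = 0.0571 for each, raw and adjusted over the 7 pairs, which is the smallest that 3 libraries against 4 allow when the smaller one-sided share is doubled, so this test could not pass 0.05. Counting instead the assignments with an absolute difference at least as large gives p = 0.0286 for each by the same exact test, a definition tried after the values had been seen. This too is the smallest p-value that the definition allows, in groups already seen not to overlap, and no conclusion is drawn from it.

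**Figure D3:**
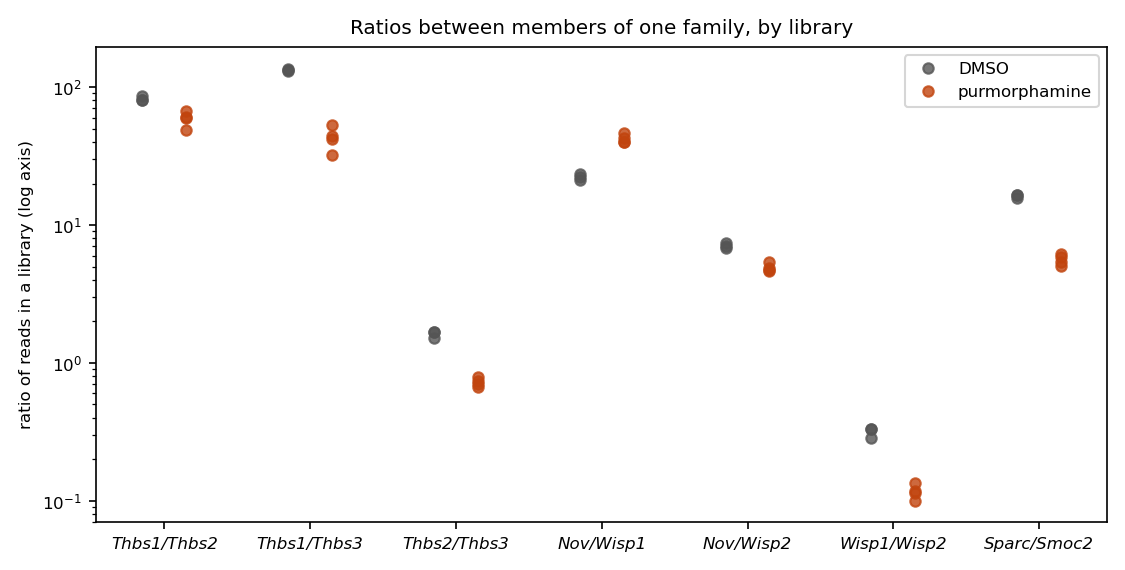
Ratio of the reads of 2 genes of 1 family in each library (vertical axis, logarithmic) for 7 pairs, with 1 point for each DMSO library (grey, n = 3) and each purmorphamine library (orange, n = 4). In every pair the points of the groups do not overlap, and Nov/Wisp1 is the pair that is higher with purmorphamine.

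Of 17 listed relatives, from the same families or, for Spp1 and Ibsp, other matricellular proteins of bone, 14 were in the table and 10 tested. Of these, 1 was higher, 8 were lower and 1 was not called, against 31.4% higher and 31.1% lower among all genes tested. The median log2 fold change of the 10 relatives was -1.06, against 0.0038 for all genes tested. One of the 8 was Tnxb, a tenascin gene with only 18, 23 and 13 reads with DMSO and 12, 17, 10 and 7 with purmorphamine, whose groups overlapped (edgeR adjusted p = 0.0837) and which is named after its values were seen. The number lower was 7 at an adjusted p under 0.05, without DMSO replicate 3 and without purmorphamine replicate 8. The decreases included Thbs4, a pentameric thrombospondin of tendon and muscle, which had 622 ± 45.9 reads with DMSO and 90.5 ± 15.4 with purmorphamine (log2 fold change -2.83 ± 0.102, SE, edgeR adjusted p = 7.15e-13). Comp, its cartilage counterpart, had 92, 96 and 64 reads with DMSO and 53, 58, 46 and 37 with purmorphamine (log2 fold change -0.84, adjusted p = 0.000888). Tgfbi, a periostin relative, went from 979 ± 40.6 to 236 ± 22.4 reads (log2 fold change -2.10, adjusted p = 3.38e-13). Spp1, which encodes osteopontin, went from 843 ± 33.3 to 214.5 ± 22.0 reads (log2 fold change -2.02, adjusted p = 9.56e-13). Among the SPARC relatives, Sparcl1 went from 221 ± 11.1 to 54.25 ± 13.8 reads (log2 fold change -2.07, adjusted p = 2.69e-09) and Smoc1 from 184 ± 19.1 to 136.5 ± 27.8 (log2 fold change -0.48, adjusted p = 0.00794). Smoc1 and Smoc2 thus moved in opposite directions.

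Ctgf and Cyr61, the CCN2 and CCN1 genes, both commonly used as targets of YAP and TEAD factors, also moved in opposite directions. Ctgf had 1848, 1718 and 1933 reads with DMSO and 5480, 4880, 5999 and 6020 with purmorphamine (log2 fold change 1.56 ± 0.0716, SE, edgeR adjusted p = 1.40e-11). Cyr61 had 2182, 2288 and 2364 reads with DMSO and 960, 937, 956 and 1009 with purmorphamine (log2 fold change -1.29 ± 0.0483, SE, edgeR adjusted p = 1.22e-12). Their groups did not overlap. As shares of the summed level per kilobase of the 5 CCN genes, Nov went from 69.0% ± 0.833 to 57.9% ± 1.20, Ctgf from 5.38% ± 0.235 to 19.1% ± 2.05, Wisp2 from 14.6% ± 0.450 to 17.7% ± 1.36, Cyr61 from 9.47% ± 0.390 to 4.66% ± 0.170 and Wisp1 from 1.60% ± 0.0934 to 0.707% ± 0.0403 (SD, n = 3 and n = 4). The summed level of the 5 was 846 ± 17.0 with DMSO and 706 ± 9.41 with purmorphamine. The Wisp2 level itself was 123 ± 5.09 with DMSO and 125 ± 10.3 with purmorphamine, so its larger share reflects the lower sum. All sums and shares here were taken by merged exons only, not by the longest transcript. Among the 5 thrombospondin genes the sum was 422 ± 9.66 and 177 ± 16.7, and Thbs1 held 94.5% ± 0.221 and 94.0% ± 0.863 of it. The Thbs3 share was 0.889% and 2.84%, and the Thbs4 share 3.18% and 1.07%. For the sums and shares named here other than that of Thbs1, the exact permutation test gave p = 0.0571 (0.0686 adjusted over 12 sums and shares), again the smallest possible raw value, and for the Thbs1 share p = 0.571 by the same exact test.

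Receptors of matricellular proteins were called in both directions. Of 19 listed, 17 were tested, and 5 were higher, 7 lower and 5 not called. Among all genes tested, 31.4% were higher and 31.1% lower, so calls in both directions were common here. The median log2 fold change was -0.06 for the receptors and 0.0038 for all genes tested. Itga6, the α chain of laminin-binding integrins that also bind CCN proteins, went from 1151 ± 18.7 to 183.5 ± 22.8 reads (log2 fold change -2.70 ± 0.0744, SE, edgeR adjusted p = 3.87e-14). Itga8, whose integrin binds tenascin C and nephronectin, went from 299.7 ± 2.52 to 119 ± 3.77 reads (log2 fold change -1.38), Notch1 from 1138 ± 23.7 to 564 ± 33.9 (log2 fold change -1.06) and Itgb3, a chain of the αvβ3 receptor, from 787 ± 15.6 to 409 ± 22.1 (log2 fold change -0.99). Their adjusted p values from edgeR were 5.74e-10, 8.12e-11 and 5.45e-10. These decreases were named for being the largest changes called. The remaining receptors called lower were Itga5, Calr and Sdc4, with log2 fold changes of -0.65, -0.58 and -0.22. The 5 receptors called higher had log2 fold changes of 0.83 for Vldlr, 0.65 for Lrp1, 0.52 for Cd47, 0.47 for Itga9 and 0.18 for Itgb5. Cd36 had at most 1 read in any library and was not tested. The 5 called higher, Itga5, Calr, Sdc4 and Cd36 are named after their values were seen.

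Matrix partners and processing enzymes, 10 genes that were all tested, gave 2 higher, 5 lower and 3 not called. Of all genes tested, 31.4% were higher and 31.1% lower. The median log2 fold change was -0.17 for the partners and 0.0038 for all genes tested. Lox, which crosslinks collagen and elastin, went from 65391 ± 2215 to 38328 ± 1317 reads (log2 fold change -0.82, adjusted p = 3.56e-10 from edgeR). Mmp2, a gelatinase, had a log2 fold change of -0.71 (adjusted p = 7.61e-08) and Col4a1, of basement membrane, one of -0.39 (adjusted p = 1.88e-05). Bmp1, the procollagen C-proteinase, rose by 0.31 (adjusted p = 0.00165).

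**Figure D4:**
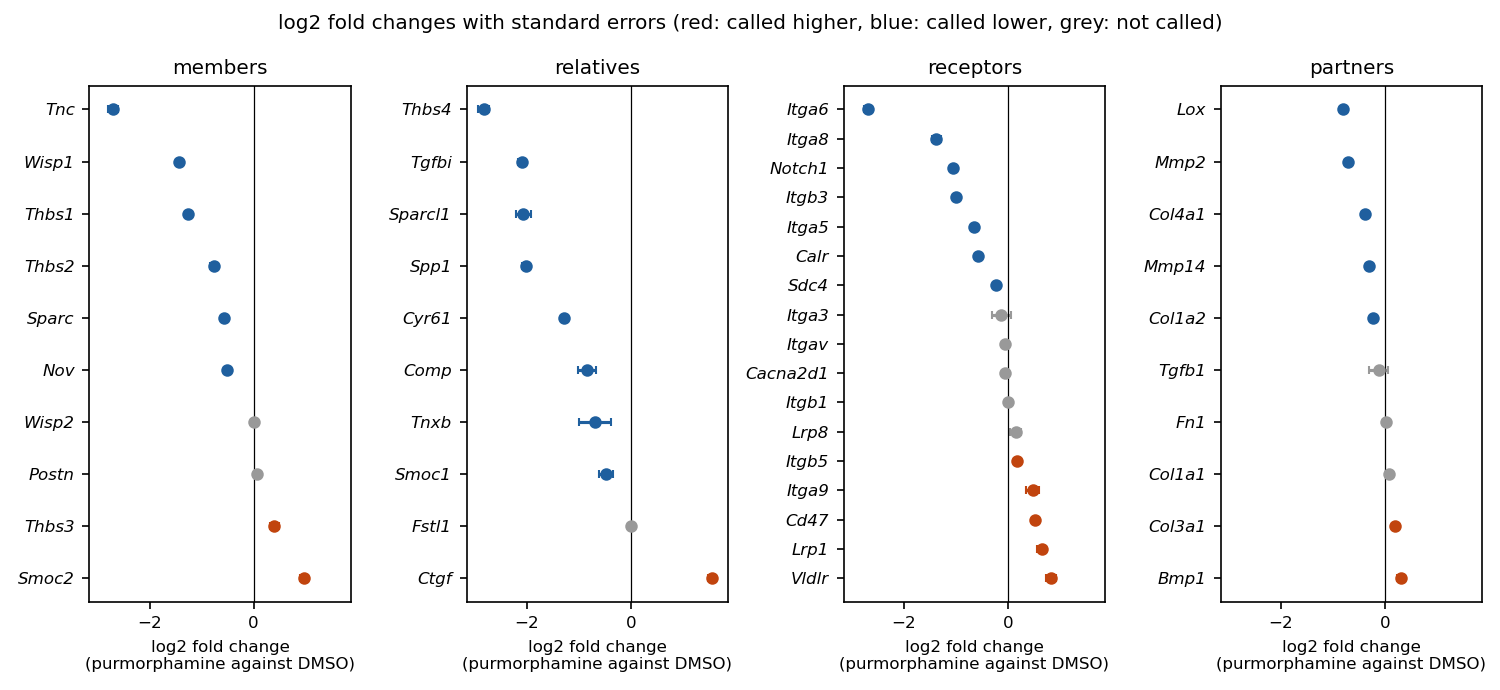
log2 fold change of purmorphamine against DMSO (horizontal axes) with its standard error for the 10 genes and the tested genes of the 3 lists, in red where called higher, blue where called lower and grey where not called (adjusted p under 0.2, edgeR, n = 4 against n = 3). Tnc at -2.70 and Smoc2 at 0.96 are the ends of the first panel, and Ctgf at 1.56 is the gene called higher among the relatives.

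Promoter sequences from RefSeq (GRCm38.p6) were at hand for 5 of the 10 genes, in 7 windows of 250 bases before a start site, Tnc and Postn having 2 start sites each. Those of Tnc, the gene that fell most, of Thbs2 and Thbs3, which moved in opposite directions, and of Postn, which was not called, are printed below 5′ to 3′ on the strand of the gene, with a TATA motif in capitals.

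Tnc (chr4:64047016-64047265, minus strand): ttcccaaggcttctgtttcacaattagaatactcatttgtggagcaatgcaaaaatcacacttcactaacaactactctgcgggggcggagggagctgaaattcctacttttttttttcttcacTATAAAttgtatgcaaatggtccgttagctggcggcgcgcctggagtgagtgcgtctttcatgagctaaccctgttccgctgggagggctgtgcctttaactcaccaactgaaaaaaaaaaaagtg

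Thbs2 (chr17:14694263-14694512, minus strand): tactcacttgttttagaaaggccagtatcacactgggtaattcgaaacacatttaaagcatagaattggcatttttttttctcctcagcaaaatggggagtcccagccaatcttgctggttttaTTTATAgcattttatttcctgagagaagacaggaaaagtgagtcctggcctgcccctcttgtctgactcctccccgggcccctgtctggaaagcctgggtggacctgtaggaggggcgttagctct

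Thbs3 (chr3:89214930-89215179, plus strand): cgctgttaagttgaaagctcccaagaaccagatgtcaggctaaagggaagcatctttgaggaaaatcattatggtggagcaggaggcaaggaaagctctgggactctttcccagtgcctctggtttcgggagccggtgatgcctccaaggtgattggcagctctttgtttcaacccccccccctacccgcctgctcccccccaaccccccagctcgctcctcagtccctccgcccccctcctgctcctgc

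Postn (chr3:54360857-54361106, plus strand): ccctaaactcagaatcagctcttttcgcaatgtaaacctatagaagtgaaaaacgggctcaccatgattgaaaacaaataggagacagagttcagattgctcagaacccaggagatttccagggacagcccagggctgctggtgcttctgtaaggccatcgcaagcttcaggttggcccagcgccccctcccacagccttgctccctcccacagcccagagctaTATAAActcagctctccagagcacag

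In these windows 4 motifs were looked for on both strands, none of which contains another. The Gli motif was GACCACCCA. The motif of TEAD factors was GGAATG. That of AP-1 was TGACTCA, and the TATA motif was TATAAA. The last stood 26 bases before the Postn start, 126 bases before the Tnc start and, on the opposite strand and so printed as its reverse complement, 126 bases before the Thbs2 start. The same Tnc site lay 205 bases before the second Tnc start. The search took the exact letters TATAAA, and so did not mark the letters tatataag, which stand closer to that second start in the window not printed. No window of the 5 genes held the exact letters of the other 3 motifs. Sequences differing from a motif in a single base were not looked for. Of the 32851 windows in the RefSeq table, the TATA motif was found in 12.4%, that of TEAD in 12.6%, that of AP-1 in 4.46% and that of Gli in 0.225%. A match describes these letters and is no sign of binding. The motifs and the windows printed were chosen after the values of the genes had been seen. Thbs1, Smoc2, Nov, Wisp1 and Wisp2 had no entry.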

How the data were processed

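RNA from C3H10T1/2 cells was made into stranded, ribosomal RNA-depleted libraries and sequenced as single reads of 100 bases. The authors resampled the reads to equal numbers in all libraries, counted sense-strand reads per gene and deposited the counts as whole numbers. The submitters' processing notes name STAR 2.5.3a and mm9. Libraries were grouped by their titles and the agent in their labels, with 0 per-sample columns unused. The depth, about equal by construction, held 14337225 to 14342154 reads for each library, so that a count of 0 allows up to 3 reads. This covers counting error only.

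From the counts, edgeR 4.0.16 (limma 3.58.1, R 4.3.3) was used with TMM factors, filterByExpr (minimum 10 counts, total 15) and quasi-likelihood tests, purmorphamine minus DMSO without covariates, over 12388 of 18468 genes. Benjamini-Hochberg adjustment ran over all of them, with calls at 0.2. Standard errors were the log2 change divided by the root of its F. Exact permutation tests used scipy 1.17.1, two-sided with the smaller one-sided share doubled. The other definition of two-sided, by the absolute difference, was tried after the first results had been seen. Calculations were tested on simulated counts. Named were all 10 genes, called relatives averaging 50 reads or more, the 4 called receptors and 4 called partners with the largest change and at least 50 reads, and Gli1 and Ptch1. Tnxb, Cd36, Itga5, Calr, Sdc4 and the receptors called higher were named in addition, after their values had been seen. Members and lists were chosen with earlier results of these data known, and the intervals and family shares were added after the values of the genes had been seen. Cd47 stands on 2 rows, of which the one whose Ensembl identifier has that symbol was used.

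By Ensembl identifier, 17632 genes (95.5%) were placed on GRCm38 with GENCODE M21. No matched gene had the same start in the table, so the table's coordinates were not used. Alternatives were library totals, RLE factors, DESeq2 1.42.0, limma-voom, other filters and thresholds, other pseudocounts, transcript length and each library left out in turn.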

Additional observations from a re-analysis of the deposited data

How the results depend on the processing

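The counts of 6 lower and 2 higher genes were each within 1.5 times their value under every alternative run but one, the requirement of a change of at least 1.5-fold, which left 1 higher (Smoc2) and 4 lower (Tnc, Wisp1, Thbs1 and Thbs2). Thbs3, Sparc and Nov lost their call under that requirement and under no other alternative. Where 3 genes were higher, Postn was the added one. The lists were counted again under library totals, limma-voom, the threshold of 0.05 and each library left out. The number lower ran from 7 to 8 for relatives and for receptors and stayed 5 for partners. The number higher stayed 1 for relatives and ran from 5 to 6 for receptors and from 2 to 3 for partners. The calls over all genes moved as well. Library totals called 4650 of 12388 genes higher and 3163 lower, against 3887 and 3854 in the main fit. With limma-voom or a library left out, 3500 to 3961 genes were higher and 3374 to 3879 lower. The log2 fold change of Wisp2 was not called under any of the 15 alternatives and ran from -0.03 without purmorphamine replicate 6 to 0.06. No paired analysis was possible because DMSO libraries are numbered 2 to 4 and purmorphamine libraries 5 to 8. With the exact test on the absolute difference of means, chosen after seeing the data, the 7 ratio differences keep their values of -0.50 (Thbs1/Thbs2), -1.66 (Thbs1/Thbs3), -1.16 (Thbs2/Thbs3), 0.92 (Nov/Wisp1), -0.53 (Nov/Wisp2), -1.45 (Wisp1/Wisp2) and -1.53 (Sparc/Smoc2). Each then had p = 0.0286 by that exact test, the smallest it allows. The groups were already known not to overlap in the 7 pairs, so passing 0.05 in this way carries no conclusion. With a library left out, the exact p was 0.1 or 0.133, the smallest those group sizes allow, which says nothing about stability. Depth limits Thbs2 and Thbs3 most, whose 239 to 425 reads carry a counting error above the spread between libraries in 3 of the 4 groups.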
